A study of Homo sapiens with 5 samples.

Results

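Solute carrier (SLC) genes were described in MDA-MB-231 cells, a mesenchymal-like, triple-negative breast cancer line, in 5 libraries of total RNA. A gene was taken as a member when its symbol had the form of the SLC nomenclature (SLC, family number, letter, member number), and 68 of the 4202 genes in the deposited table met this. No measured value entered the choice. The members were grouped by family number into 10 amino acid carriers, 13 metal ion carriers, 6 sugar carriers, 14 mitochondrial carriers of family SLC25, 10 nucleotide sugar carriers of family SLC35, 1 monocarboxylate carrier, 6 ion and pH carriers and 8 others. The class names follow family number only. Some members have another known cargo or none settled, such as SLC43A3 and SLC35F5 below. SLC7A5P2, SLC35E2B, SLC7A6OS, SLC2A4RG, SLC9A3R1 and SLC9A3R2 are also listed but fall outside the rule.

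The treatments lasted 4 h. The 4 treated cultures had CGI-1746, an inhibitor of the kinase BTK; LU-102, an inhibitor of the trypsin-like sites of the proteasome; CGI-1746 plus LU-102, called the combination below; or bortezomib, an inhibitor mainly of its chymotrypsin-like sites. The fifth, mock, had no inhibitor. Doses were not stated in the labels, and each condition has 1 library from a cell line, so no value below has an error between cultures and no difference was tested.

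SLC proteins carry small molecules across membranes by facilitated diffusion or coupled to gradients of sodium, protons or another solute. Those of the plasma membrane bring in amino acids, glucose, vitamins and metals, and tumour lines depend on several of them, such as the SLC7A5 and SLC3A2 heterodimer for leucine, SLC7A11 with SLC3A2 for cystine, and SLC2A1 for glucose. Family SLC25 lies in the inner mitochondrial membrane, where it exchanges ADP for ATP and moves phosphate, citrate and other metabolites. Several SLC genes are textbook targets of stress factors: ATF4 acts on amino acid carriers, NRF2 on SLC7A11, MTF1 on the zinc exporter gene SLC30A1, and HIF1 on SLC2A1, SLC2A3 and SLC16A3.

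Upstream windows of 4 members are printed because each leads a comparison or belongs to one of those target lists: SLC30A1 (zinc export), SLC3A2 (heavy chain of amino acid exchangers), SLC16A3 (lactate export) and SLC25A5 (ADP and ATP exchange). Each window holds the 250 bases before a RefSeq transcript start in GRCh38.p14, 5′ to 3′ on the gene's strand. RefSeq lists 1 start for SLC30A1 and SLC25A5, 3 for SLC3A2 and 5 for SLC16A3; the first listed was used, which for SLC3A2 and SLC16A3 lies inside the span of the gene. Capitals mark 2 short motifs found on either strand, the metal response element core (TGCGCNC or TGCACNC) and the antioxidant response element (TGACNNNGC); none of the marked motifs overlap.
SLC30A1, chr1:211579162-211579411, minus strand: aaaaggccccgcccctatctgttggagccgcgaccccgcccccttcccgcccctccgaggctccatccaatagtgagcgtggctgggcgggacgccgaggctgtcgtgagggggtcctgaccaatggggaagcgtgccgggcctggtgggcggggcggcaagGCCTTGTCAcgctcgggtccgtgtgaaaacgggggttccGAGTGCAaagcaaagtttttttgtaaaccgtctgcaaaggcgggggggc
SLC3A2, chr11:62881449-62881698, plus strand: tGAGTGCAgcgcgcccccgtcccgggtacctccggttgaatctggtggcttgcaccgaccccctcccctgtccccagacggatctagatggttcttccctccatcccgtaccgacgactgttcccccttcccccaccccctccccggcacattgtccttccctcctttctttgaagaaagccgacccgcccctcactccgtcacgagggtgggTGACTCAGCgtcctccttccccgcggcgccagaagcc
SLC16A3, chr17:82228185-82228434, plus strand: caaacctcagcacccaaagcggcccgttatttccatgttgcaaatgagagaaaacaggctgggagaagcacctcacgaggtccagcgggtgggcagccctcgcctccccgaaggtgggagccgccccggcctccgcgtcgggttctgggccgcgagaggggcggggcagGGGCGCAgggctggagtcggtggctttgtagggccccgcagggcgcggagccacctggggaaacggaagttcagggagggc
SLC25A5, chrX:119468194-119468443, plus strand: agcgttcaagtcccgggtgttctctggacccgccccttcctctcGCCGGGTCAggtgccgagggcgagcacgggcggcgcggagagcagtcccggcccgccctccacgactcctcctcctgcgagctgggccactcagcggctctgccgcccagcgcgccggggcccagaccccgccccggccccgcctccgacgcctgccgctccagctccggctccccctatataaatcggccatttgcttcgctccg

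RefSeq windows were found for 55 of the 68 members. The metal core occurred in 18 of these, 32.7%, against 35.3% of 3338 windows of genes in the table and 24.7% of all 27305 windows. In the SLC30A1 window it lies 49 to 43 bases before the start, on the minus strand of the gene. The antioxidant motif occurred in 12 windows, 21.8%, against 13.6% of those of the table and 11% of all; in SLC3A2 it lies 37 to 29 bases before the inner start used. A hypoxia element (ACGTG) was found in 10 windows, 18.2%, against 26.6% and 18.7%. The CEBP-ATF element (TGATGNAA) was found in 1 window, which is 1.8%, against 0.9% and 3.2%. SLC windows had a median GC content of 68.4%, against 58.0% over all windows, and such matches describe letters in a window, not bound sites.

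The deposited level of a gene is a normalized signal that behaves as reads divided by transcript length and a library factor, so levels of different genes can be set side by side. The 68 levels summed to 457 under CGI-1746, 448 under LU-102, 492 under the combination, 220.0 under bortezomib and 454 in mock. The median member had a level of 3.28, 3.27, 3.46, 1.52 and 3.33 in the same order. Levels of 1 or more were found for 68 members under CGI-1746, 67 under LU-102, 68 under the combination, 43 with bortezomib and 68 in mock. Over all 4202 genes 4170, 4171, 4177, 2231 and 4161 had such levels, so most genes of the table, SLC genes among them, were low with bortezomib. The bortezomib levels nevertheless had the highest sum over all genes, 135512 against 99255 in mock, and their highest gene had 36441 against 18035. Levels are relative within a library, and the part of these few high genes in the lower levels of the rest was not tested; fewer cells and less RNA per cell cannot be told apart in bulk RNA. Roughly, the members rested on 35 to 3834 reads each in mock and 9 to 2858 with bortezomib. The mesenchymal markers VIM, CD44, CAV1, AXL, LGALS1 and S100A4 had levels of 4.91 to 92.1 in mock; the receptor, epithelial and blood markers were not analysed here.

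**Figure D1:**
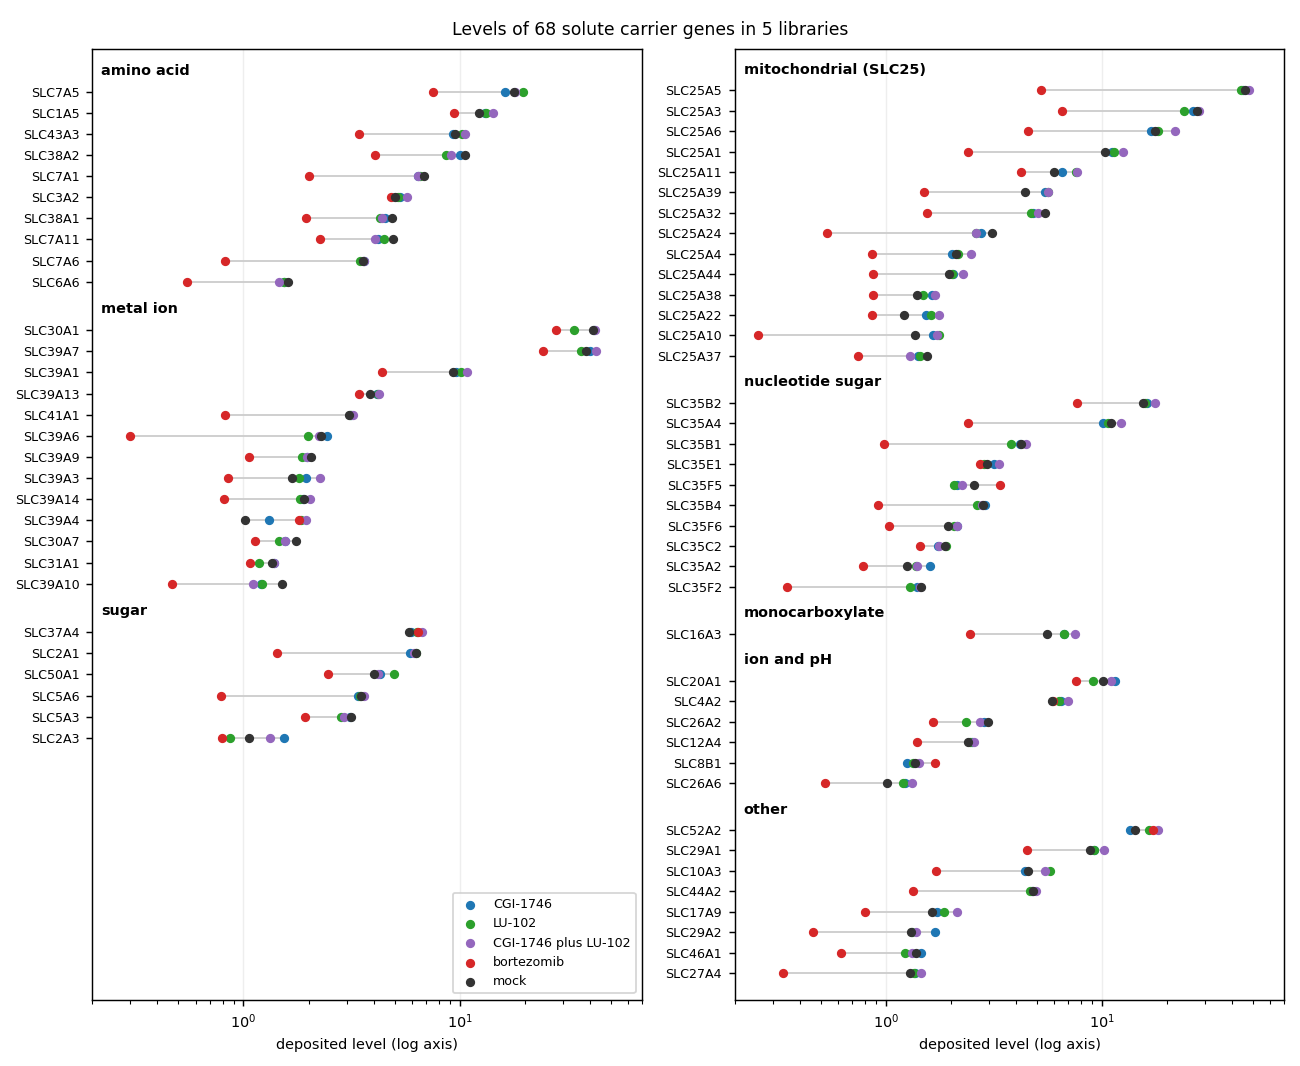
Deposited level (log axis) of each of the 68 SLC genes, ordered by class and mean level, with a point for each of the 5 libraries and a grey line over their range. SLC25A5, SLC30A1 and SLC39A7 reach levels near 40, and the bortezomib point lies left of the others for most members, with SLC39A4, SLC35F5, SLC52A2 and SLC37A4 among the exceptions.

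Levels were uneven among the carriers. SLC25A5, SLC30A1, SLC39A7 and SLC25A3 stood at 46.2, 41.6, 38.4 and 27.4 in mock, and 13 members reached 10. By class, SLC25 carriers made up 28.4% of the SLC sum under CGI-1746, 28.8% under LU-102, 29.03% under the combination, 14.1% under bortezomib and 28.7% in mock. Metal ion carriers made up 24.6%, 22.6%, 23.9%, 31.1% and 24.2% in the same order. The class shares were thus close together in 4 libraries, and with bortezomib the mitochondrial share was lower and the metal ion share higher than in mock.

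CGI-1746 against mock asked what the kinase inhibitor does to carrier expression on its own. No member was 1.3-fold or more higher or lower on the scale of log2(level + 1), a threshold of 0.38, while 1.03% of the 4186 genes compared were higher and 0.549% lower. The SLC median was 0.015, against -0.018 over all genes, and 37 members, 54.41%, lay above 0, against 43.29% of all genes. SLC2A3, the high-affinity glucose carrier of neurons and many tumours, was the highest at 0.30. Its level was 1.53 with CGI-1746 against 1.06 in mock, and rough reads placed this ratio of 1.45 within 1.06 to 1.99 (95% interval, covering counting error only). SLC2A3 has 3 pseudogenes in RefSeq and a near-identical neighbour, SLC2A14, so its share of reads is uncertain.

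SLC25A39, which brings glutathione into mitochondria, followed at 0.25, with a level of 5.44 against 4.43 in mock. SLC29A2, a nucleoside carrier, had 0.23, SLC16A3 0.22 and SLC35A2, the UDP-galactose carrier, 0.21. Lowest were SLC39A10, a zinc importer, at -0.19, SLC7A11 at -0.18, SLC35F5, whose substrate is not settled, at -0.18, SLC25A32, the mitochondrial folate carrier, at -0.16 and SLC25A24, an ATP and phosphate carrier, at -0.13. The transcripts of these low members have 35.4 to 40.19% GC. Across the members the log2 ratio rose with the GC content of the transcript, with a Spearman coefficient of 0.517. Besides the lone monocarboxylate carrier SLC16A3, class medians ran from -0.05 for amino acid carriers to 0.08 for ion and pH carriers.

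LU-102 against mock posed that question for the inhibitor of trypsin-like sites. Here 1 member was 1.3-fold or more higher, SLC39A4, and none was lower, against 1.38% higher and 0.692% lower of 4193 genes. SLC39A4, the zinc importer of enterocytes whose loss causes acrodermatitis enteropathica, had a level of 1.84 with LU-102 and 1.02 in mock, a log2 of 0.49. From about 68 and 37 reads, its ratio of 1.80 had a counting interval of 1.20 to 2.78. Over the 68 members the median was 0.0035, against -0.058 over all genes, with 35, 51.47%, above 0, against 35.82% of all genes.

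Other members at the high end were SLC25A11, the oxoglutarate and malate carrier, at 0.30, SLC25A39 at 0.29, SLC10A3 at 0.28 and SLC50A1, a sugar carrier, at 0.26. At the low end SLC30A1 had -0.28, with a level of 33.98 with LU-102 against 41.6 in mock. This zinc exporter rested on about 3178 and 3834 reads, and its ratio of 0.818 had a counting interval of 0.780 to 0.857. SLC38A2, a sodium-coupled importer of glutamine and alanine, had -0.26, SLC26A2, a sulfate carrier, -0.24, SLC35F5 -0.22 and SLC25A3, the phosphate carrier, -0.19.

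These differences were ordered by base composition. Across the 68 members the log2 ratio of LU-102 to mock correlated with the GC content of the transcript with a Spearman coefficient of 0.865, and across all 3953 genes with a transcript at 0.699; genes of a library pair share both libraries and are not independent. The 17 members with the lowest GC content (35.4 to 45.8%) had a median of -0.16, and the 17 with the highest (60.9 to 66.7%) 0.13. SLC39A4 has the highest GC content of the members, 66.7%, and SLC30A1 and SLC38A2 have 37.98% and 38.11%. An adjustment for GC content, transcript length and level was fitted over all genes with a transcript after the data were seen. It took away the fitted part and kept the median over genes. SLC39A4 then had 0.29 with LU-102 and 0.37 with the combination, and no member reached the threshold in either. SLC30A1 had -0.14 with LU-102 when adjusted. The SD across members fell to 0.088 in adjusted values, against 0.150 unadjusted, for LU-102, and to 0.096, against 0.156, for the combination. The part of library preparation in this was not tested.

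**Figure D2:**
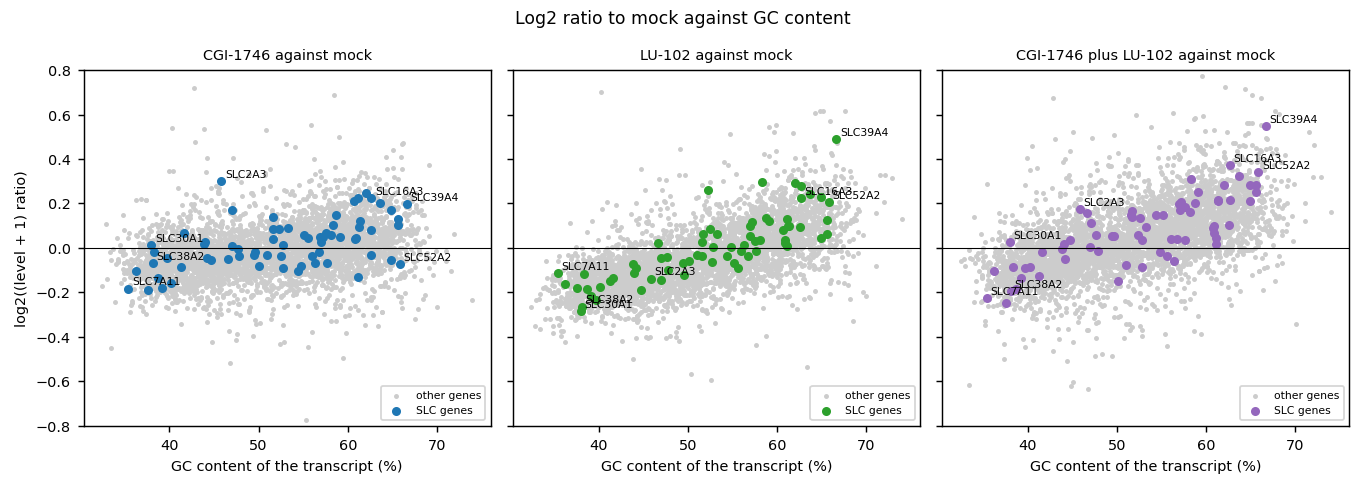
Log2 ratio to mock of (level + 1) against the GC content of the transcript in percent, with CGI-1746, LU-102 and the combination in panels from left to right; SLC genes are coloured and other genes grey. The coloured points climb from left to right in each panel: the 17 members of lowest GC content have medians of -0.05, -0.16 and -0.09 in panel order, and the 17 of highest 0.10, 0.13 and 0.22; 5 grey genes with CGI-1746 and 9 with the combination lie outside the axis.

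The combination against mock gave 1 member 1.3-fold or more higher and none lower, against 3.56% higher and 0.859% lower of 4189 genes. The member was again SLC39A4, with a level of 1.95 against 1.02 in mock and a log2 of 0.55; the comparisons share the mock library. SLC16A3, which exports lactate from glycolytic cells, lay just under the threshold at 0.37. Its level was 6.70 under CGI-1746, 6.69 under LU-102, 7.54 under the combination, 2.45 under bortezomib and 5.59 in mock, so the 3 libraries with CGI-1746 or LU-102 were higher than mock and bortezomib was lower. Its counting interval for the combination was 1.19 to 1.53 around a ratio of 1.35. SLC52A2, a riboflavin carrier, had 0.34, SLC25A22, a mitochondrial glutamate carrier, 0.32 and SLC25A11 0.31. The SLC16A3 transcript has 62.65% GC. Its log2 adjusted for GC content, length and level was 0.26 for the combination, 0.09 for LU-102 and 0.17 for CGI-1746. Rescaling levels by median-of-ratios factors gave SLC16A3 0.28 for the combination. These values stayed above 0, but the LU-102 and combination values were smaller than as deposited.

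The SLC median with the combination was 0.063, against 0.033 over all genes, and 48 members, 70.59%, lay above 0, against 57.77% of all genes. With levels rescaled by median-of-ratios factors the SLC median was -0.0079, so its sign depends on the scaling. SLC25 carriers had a median of 0.16 (0.09 when rescaled), and 11 of 14 lay above 0, against 57.77% of all genes. Among them were SLC25A6 at 0.28 and SLC25A1, the citrate carrier, at 0.25. Adjusted for GC content, length and level, SLC25A6 and SLC25A1 had 0.10 and 0.05. SLC25A6 had a level of 21.7 with the combination against 17.7 in mock; its 6 RefSeq pseudogenes make its share of reads uncertain. Amino acid carriers had a median of -0.04. SLC39A10 at -0.25, SLC7A11 at -0.23, SLC38A2 at -0.20, SLC25A24 at -0.19 and SLC25A37, an iron carrier called mitoferrin, at -0.15 were lowest. Adjusted for GC content, length and level, they had -0.10, -0.04, -0.07, -0.06 and -0.11 in that order. Across the members the log2 ratio of the combination to mock rose with GC content, with a Spearman coefficient of 0.784.

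**Figure D3:**
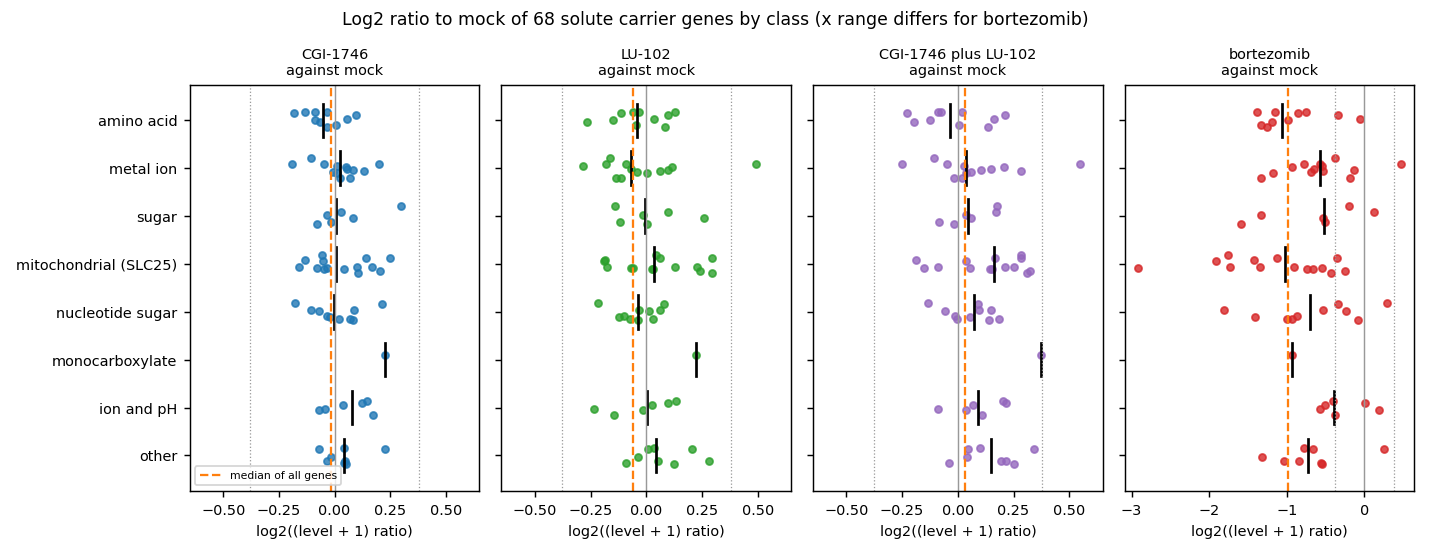
Log2 ratio to mock of (level + 1) for each SLC gene, by class, in 4 panels, 1 per treatment; black bars are class medians, the dashed line is the median of all genes and dotted lines mark 1.3-fold. Points lie mostly within the dotted lines except with bortezomib, where 51 of 68 lie left of them and the SLC25 median is -1.02 against -0.57 for metal ion carriers; the sugar and metal ion medians there turn positive, to 0.20 and 0.0019, when levels are rescaled.

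Bortezomib against mock gave lower levels for most carriers: 51 members were 1.3-fold or more lower, against 83.4% of the 4189 genes compared, and 1, SLC39A4, was higher, against 3.58%. At 2-fold, 20 members were lower and none higher, against 48.1% and 1.38% of genes. The median over all genes was -0.98, and that over the members -0.67. Rescaled levels gave 14 members higher and 21 lower, with an all-gene median of -0.44, so the split depends on the scaling. Less the all-gene median, each bortezomib log2 ratio given below as deposited is 0.98 higher, which does not hold for rescaled values. On that basis 31 members were 1.3-fold or more higher and 9 lower, against 26.5% and 26.2% of genes. For mock levels of 5 or more, the median ratio of deposited levels, bortezomib over mock, was 0.455 over 24 members and 0.294 over all 1338 genes.

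The SLC25 class had a median of -1.02 and 7 of 14 members above the all-gene median, so as a class it lay near all genes. On the scale of log2(level + 1), 4 abundant members were among the lowest SLC genes. By the ratio of deposited levels SLC25A5 was lowest. The ratios of SLC25A3, SLC25A6 and SLC25A1 were 0.238, 0.257 and 0.232. Members of lower level such as SLC39A6 (0.131) and SLC25A10 (0.188) lay below these. Across 3948 genes with a transcript the bortezomib log2 ratio of (level + 1) fell with the mock level, with a Spearman coefficient of -0.556. The 657 genes with a mock level of 10 or more had a median of -1.60. The added 1 shrinks ratios of low genes. Without it, the all-gene median ratio was 0.322 at mock levels of 1 or more and 0.299 at 10 or more. SLC25A5, which exchanges ADP for ATP and is the main such carrier of dividing cells, had a level of 45.1 under CGI-1746, 44.1 under LU-102, 48.1 under the combination, 5.24 under bortezomib and 46.2 in mock. The bortezomib library thus stood alone, with a ratio to mock of 0.113, a counting interval of 0.093 to 0.137 and a log2 of -2.92, or -1.94 less the all-gene median. SLC25A5 (GRCh38.p14, chrX:119468444-119471396) has 9 RefSeq pseudogenes, so its share of reads is uncertain. SLC25A3 (chr12:98593686-98606367) had 26.4, 23.95, 28.2, 6.53 and 27.4 in the same order of libraries, a log2 of -1.92 with bortezomib. SLC25A6, a sister gene of SLC25A5, had 16.97, 18.3, 21.7, 4.54 and 17.7, and SLC25A1 had 11.2, 11.4, 12.5, 2.40 and 10.3. Their log2 values were -1.75 and -1.74. Adjusted for GC content, length and level, SLC25A5, SLC25A3, SLC25A6 and SLC25A1 had -1.88, -1.01, -1.68 and -1.85 with bortezomib. The adjustment keeps the median over genes, so SLC25A3 lay near the all-gene median of -0.98. In the authors' deposited table SLC25A5 and SLC25A3 had an FDR of at most 0.05 for bortezomib against mock, at 8.78e-05 and 0.0201, which is 2 of 68 members against 5.69% of all genes; the values come from a test that takes the levels themselves as counts.

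As deposited all 14 SLC25 members were lower with bortezomib, and 12 passed 1.3-fold, against 83.4% of all genes; rescaled, 11 were lower and 3 higher, SLC25A11 (0.39) and SLC25A22 (0.27) among them. The proportion of the adenine nucleotide carriers was also different: the level of SLC25A5 over that of SLC25A6 was 2.66 under CGI-1746, 2.41 under LU-102, 2.21 under the combination, 1.16 under bortezomib and 2.62 in mock. Outside SLC25, SLC35A4 had -1.81 and SLC2A1, the main glucose carrier of tumour cells, -1.58. SLC2A1 levels were 5.87, 6.30, 6.18, 1.42 and 6.27 in the order given, so that bortezomib alone stood apart.

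Metal ion carriers lay above the all-gene median in 11 of 13 cases, with a class median of -0.57 (0.0019 when rescaled). SLC30A1 had 41.9 under CGI-1746, 33.98 under LU-102, 42.3 under the combination, 28.1 under bortezomib and 41.6 in mock. SLC39A7, which releases zinc from the endoplasmic reticulum, had 39.9, 36.6, 42.6, 24.2 and 38.4. As deposited both were lower with bortezomib, at -0.55 and -0.64, but rescaled they were higher, at 0.39 and 0.30, and less the all-gene median they were 0.43 and 0.34. They were the 2 members with the highest levels in the bortezomib library. Lowest of the class were SLC39A6, a zinc importer, at -1.34 and SLC41A1, a magnesium carrier, at -1.17.

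With bortezomib 6 members, 8.82%, lay above 0 as deposited, against 7.81% of all genes; rescaled, 27 did. SLC39A4 had a level of 1.31 under CGI-1746, 1.84 under LU-102, 1.95 under the combination, 1.81 under bortezomib and 1.02 in mock, so mock was the lowest and the 3 libraries with a proteasome inhibitor were the highest. SLC35F5 had 2.15, 2.07, 2.24, 3.38 and 2.57 in the same order and was highest with bortezomib, at 0.30. SLC52A2 had 13.5, 16.5, 18.3, 17.2 and 14.2, again with the 3 libraries that had LU-102 or bortezomib above the other pair. SLC8B1, the mitochondrial sodium and calcium exchanger, had 0.19, SLC37A4, which carries glucose 6-phosphate into the endoplasmic reticulum, 0.12 and SLC4A2, an anion exchanger, 0.01. After the adjustment for GC content, length and level, SLC39A4, SLC8B1 and SLC4A2 fell below 0 with bortezomib, at -0.33, -0.20 and -0.11, and SLC52A2 stood at 0.27. These values stayed above the all-gene median of -0.98, which the adjustment keeps. For SLC52A2, whose transcript has 65.8% GC, the adjusted values were 0.02 with LU-102, against 0.20 unadjusted, and 0.15 with the combination, against 0.34. All 6 ion and pH carriers lay above the all-gene median.

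**Figure D4:**
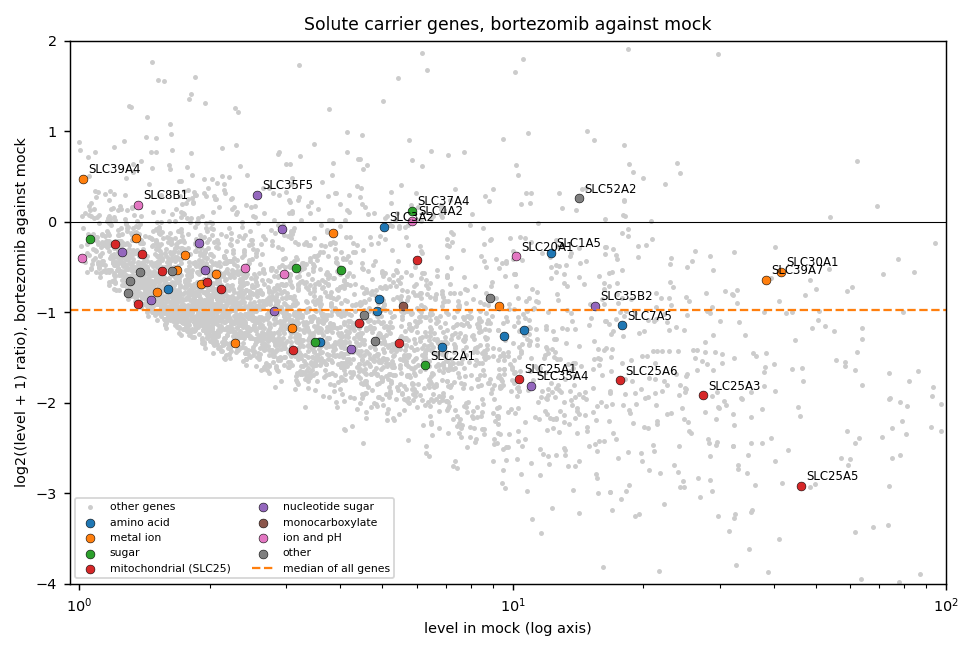
Log2 ratio of (level + 1), bortezomib over mock, against the level in mock (log axis), with SLC genes coloured by class and other genes grey; the dashed line is the median of all genes, -0.98. SLC25A5, SLC25A3, SLC25A6 and SLC25A1 lie below it at high levels, from -2.92 to -1.74. Log2 ratios of (level + 1) fall with level over all genes, whose median is -1.60 at mock levels of 10 or more. The all-gene median ratio of deposited levels is 0.322 at mock levels of 1 or more and 0.299 at 10 or more. SLC30A1 and SLC39A7 lie above the dashed line at -0.55 and -0.64, values that turn positive (0.39 and 0.30) when rescaled. Of 4121 grey genes, 118 lie outside the axes or below a mock level of 1.

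Amino acid carriers had a class median of -1.07 with bortezomib, and 4 of 10 lay above the all-gene median. SLC7A5, the leucine exchanger, had a level of 16.2 under CGI-1746, 19.7 under LU-102, 18.1 under the combination, 7.54 under bortezomib and 17.9 in mock. Its partner SLC3A2 had 5.28, 5.18, 5.74, 4.80 and 5.03, a bortezomib log2 of -0.06 as deposited and 0.92 less the all-gene median. The level of SLC7A5 over that of SLC3A2 was therefore 3.08 under CGI-1746, 3.80 under LU-102, 3.16 under the combination, 1.57 under bortezomib and 3.55 in mock. SLC7A11, the cystine carrier that pairs with the same heavy chain, had 4.20, 4.46, 4.05, 2.27 and 4.91, so mock was the highest of the 5. SLC7A5 has 2 pseudogenes in RefSeq, and a listed one, SLC7A5P2, had levels of 3.81, 4.77, 3.47, 4.46 and 3.09.

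Of 11 amino acid carriers listed as ATF4 targets 7 were measured, and their values were mixed. As deposited, none of the 7 was 1.3-fold higher in any treatment. Their medians were -0.09 under CGI-1746, -0.06 under LU-102, -0.09 under the combination and -0.99 under bortezomib. With bortezomib 5 were 1.3-fold or more lower, against 83.4% of all genes and an all-gene median of -0.98. Rescaled, SLC3A2 (0.77) and SLC1A5 (0.55) were past 1.3-fold higher with bortezomib, and the rest lay below 0. Less the all-gene median, 2 of the 7 were 1.3-fold or more higher and 1 lower, against 26.5% and 26.2% of genes. SLC1A5, the glutamine carrier, had levels of 13.2, 13.2, 14.3, 9.45 and 12.2, and a log2 of 0.10, 0.10, 0.21 and -0.34 in the 4 treatments; the bortezomib value is 0.55 when rescaled. SLC7A1, the carrier of arginine and lysine, was the lowest amino acid member with bortezomib at -1.39, and SLC38A1, a glutamine importer, had -0.99. SLC43A3, grouped here by family although purine nucleobases are its known cargo, had -1.26. The NRF2 target SLC7A11 had -0.18, -0.11, -0.23 and -0.86 in the 4 treatments as deposited. Its transcript has the lowest GC content of the members, 35.4%, and adjusted for GC content, length and level it had 0.04 with LU-102 and -0.04 with the combination. With bortezomib it had -0.12 when rescaled and 0.12 less the all-gene median.

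SLC30A1 can be set beside the metallothionein genes MT1X and MT2A, which MTF1 also controls. MT1X had 59.8 under CGI-1746, 48.2 under LU-102, 81.6 under the combination, 21.98 under bortezomib and 41.1 in mock, and MT2A had 168, 179, 261, 62.1 and 135. With the combination their log2 ratios were 0.97 and 0.95, against 0.03 for SLC30A1, so the zinc exporter gene lay near its mock level where both metallothionein genes were higher. Adjusted for GC content, length and level, SLC30A1 had 0.14 there. Such values are not given for MT1X and MT2A, and the part of transcript composition and length in this contrast was not tested. Of the HIF1 targets, SLC2A1 had -0.08, 0.01, -0.02 and -1.58 in the 4 treatments, SLC2A3 0.30, -0.14, 0.17 and -0.20, and SLC16A3 0.22, 0.22, 0.37 and -0.93. These 3 genes thus had different orders across libraries, and SLC2A3, with about 58 to 102 reads, rests on the fewest.

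The combination was also set against each agent alone. Against LU-102, no member passed 1.3-fold in either direction, while 1.69% of 4193 genes were higher and 0.501% lower; the SLC median was 0.071, against 0.085 over all genes, and -0.025 when rescaled. SLC2A3 and SLC30A1 were highest, at 0.31 each. Against CGI-1746, SLC52A2 was higher at 0.41, with 18.3 for the combination and 13.5 for CGI-1746, and none was lower, against 2.27% and 0.477%; the median was 0.056, against 0.042 over all genes, and -0.050 when rescaled. The counting interval of the SLC52A2 ratio of 1.36 was 1.21 to 1.52, but its log2 was under the threshold when rescaled (0.28), when adjusted for GC content (0.27) and with a pseudocount of 5. SLC39A4 followed at 0.35 and SLC25A6 at 0.34.

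Departure from additivity, the log2 level under both inhibitors minus that under each inhibitor alone plus that in mock, had a median of 0.065 over the members and 0.10 over 4197 genes; rescaled, the SLC median was -0.076. No member reached 0.38. The highest were SLC30A1 at 0.30, SLC25A6 at 0.29 and SLC35A4 at 0.29, and the lowest SLC50A1 at -0.29, SLC25A39 at -0.26 and SLC35A2 at -0.20. SLC30A1, at 33.98 with LU-102 alone, had 42.3 with the combination, 41.9 with CGI-1746 and 41.6 in mock. SLC25A39 stood near 5.44, 5.65 and 5.61 with CGI-1746, LU-102 and both, all above 4.43 in mock, and the combination lay no higher than LU-102 alone. Departure fell with GC content across the members, with a Spearman coefficient of -0.515.

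Other transporters in the table were set beside the SLC genes. Of 11 related carriers and partners outside the nomenclature, 1, MFSD10, was 1.3-fold higher with the combination at 0.43, against 3.56% of all genes, and their median was 0.19 there and -0.85 with bortezomib. BSG, the chaperone of SLC16A3 at the plasma membrane, had levels of 17.8, 17.9, 20.7, 3.64 and 17.9, a bortezomib log2 of -2.03 against -0.93 for SLC16A3. TFRC, which takes up iron with transferrin, had -1.49. The 6 ABC transporter genes had a bortezomib median of -1.08 and the 3 subunits of the sodium pump -1.10, against -0.67 for the SLC genes; none of these differences was tested.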

How the data were processed

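Total RNA of 5 libraries was sequenced with 150 bp paired reads, per the labels' protocols; the submitters' processing notes name Partek and hg38. Not given in the sources used here are the aligner, annotation, strand and normalization. The level, as deposited, is a normalized signal per gene, called a least squares mean per the file headers. The authors also deposited ratios, signed fold changes (a score) and p-values with an FDR; of these only FDR values were used. Columns that repeat a library, 7 in all, were identical and not used. On short genes, level times length stepped by 53.7 to 59.3 per read, which gave the rough reads behind members; their intervals (95%) cover counting error only.

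Each of 6 comparisons used log2(level + 1) over genes that reached a level of 1 in either library, without a test, since each condition has 1 library. Genes were counted at 1.3-fold, and at 2-fold for bortezomib. Transcript length and GC content were taken from GENCODE 29, promoters and coordinates from RefSeq (67 of 68 members matched). The members, lists and thresholds were chosen with earlier results of these data known. The 41 genes named by rule were the 3 highest of each class, the 5 highest and 5 lowest of each comparison with mock, members past 1.3-fold, target lists, and the 3 highest and 3 lowest departures; other members were named after their values were seen. Alternatives were median-of-ratios scaling, a pseudocount of 5, a level of at least 5, no level filter and, added after seeing the data, an adjustment for GC content, length and level. Scripts ran in Python 3.11.15 (matplotlib 3.10.9, scipy 1.17.1, pandas 2.3.3, numpy 2.4.6) and were tested on simulated data.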

Additional observations from a re-analysis of the deposited data

How the results depend on the processing

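A median or single value was called moved when it changed by 0.070 or more. This was the robust SD over genes of the departure from additivity, divided by 2. Counts were compared by relative size instead. Without a level filter, none of the 19 counts and medians over all members or the 270 values of single genes and classes moved. Median-of-ratios scaling (445 genes) moved 8 of 19. The SLC median was then -0.0079 for the combination against mock, -0.0254 for the combination against LU-102 and -0.0504 for the combination against CGI-1746, where the count of higher members was 0, and the median departure was -0.0756. For bortezomib against mock it gave 14 higher, 21 lower and a median of -0.1047, and 21 of 67 members changed sign. Of the classes and rule-named genes past 1.3-fold as deposited, those that did were the metal ion median (0.0019), the sugar median (0.2023), SLC20A1 (0.498), SLC25A11 (0.3937), SLC26A2 (0.0972), SLC30A1 (0.3919), SLC39A7 (0.2957) and SLC50A1 (0.2147). A pseudocount of 5 left 0 members higher with LU-102, the combination, bortezomib and the combination against CGI-1746, and with bortezomib 29 lower and a median of -0.2636. A level of at least 5 left out SLC39A4, so that 0 were higher with LU-102, the combination and bortezomib, with a median of 0.1649 over 26 members for the combination, and 19 lower with a median of -0.9345 over 24 for bortezomib. Adjusted for GC content, length and level, 0 were higher with LU-102, the combination and the combination against CGI-1746; the bortezomib median was -0.8193, and 7 of 68 members changed sign with bortezomib, of which SLC20A1 (0.1594), SLC30A1 (0.391), SLC39A4 (-0.3286) and SLC39A7 (0.1631) were past 1.3-fold as deposited. Except where a setting removes genes or shrinks ratios by construction, the cause was not tested. No paired analysis was possible because each condition has 1 library, and no library could be left out for the same reason. Low members rest on few reads: 35 in mock and 9 with bortezomib at the least.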
